A study of Mus musculus and Rattus norvegicus with 30 samples.

Results

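The SLC25 genes encode the mitochondrial carrier family. The genes described here were the protein-coding genes whose symbol is Slc25a followed by a number, without Slc25a3, Slc25a4, Slc25a5 and Slc25a20. The rule found 39 genes among 32545 in the rat table and 42 among 54307 in the mouse tables, 43 in either species and 38 in both. Slc25a2 was found in rat only, and Slc25a36, Slc25a51 and Slc25a53 were among those found in mouse only. Membership rests on the symbol and the protein-coding label and used no measured value. The rule was chosen with earlier results of these data known.

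RNA was sequenced from cultured heart muscle cells of rats and from the left ventricle of mice. The rat cells were neonatal rat ventricular myocytes (NRVM), taken from pups at postnatal day 3, cultured with bromodeoxyuridine after fibroblasts had been allowed to attach to plastic. Cells received siRNA against both ERRα and ERRγ, estrogen-related receptors, or a scramble siRNA. Each of these arms was given 915, a pan-ERR agonist, at 10 µM for 24 h, or the same volume of its vehicle DMSO. This made 4 rat groups of 3 libraries. All mice were wild type. They had sham surgery or TAC (transverse aortic constriction, a pressure-overload surgery) and then 332, another ERR agonist, by intraperitoneal injection or vehicle for 6 weeks. The mouse groups were sham with vehicle (n = 3), sham with 332 (n = 5), TAC with vehicle (n = 5) and TAC with 332 (n = 5). The labels used here give no strain, sex, age or dose for the mice, and do not say whether the rat replicates came from separate litters or cultures, so p-values measure the spread between these libraries.

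Most SLC25 proteins sit in the inner mitochondrial membrane and exchange one metabolite of the matrix for another of the cytosol. In the heart they pass the reducing equivalents of the malate-aspartate shuttle and bring in amino acids, nucleotides, cofactors, iron and glutathione. The ERRs are nuclear receptors that bind a short DNA element and drive many genes of mitochondrial oxidation in heart muscle. Not every SLC25 protein belongs to the inner membrane: Slc25a46 lies in the outer membrane and Slc25a17 in the peroxisome.

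Promoters of the mouse members were read for the ERR response element, since the rat design lowers 2 of the receptors that bind it. The sequences come from RefSeq (GRCm38.p6), run from 250 bases before to 50 bases after each start, and cover 32 of the 42 mouse members. The element TNAAGGTCA, on either strand, was in the promoter of 0 of those 32 genes, against 1.43% of 27025 genes with a promoter of the same length. Its last 7 bases, AAGGTCA, were searched after that result was known. They were in 1 of the 32 members, Slc25a34, against 5.38% of all genes; every TNAAGGTCA holds this shorter motif. The NRF1 motif, GCGC, any 2 bases and GCGC, was in 2 members, Slc25a10 and Slc25a31 (6.25%), against 7% of all genes. Shown are the 150 bases before the start of the 2 members with the largest falls under rat knockdown, both on the minus strand and written 5′ to 3′ along the gene. Capitals mark AAGGTCA, which lies on the opposite strand and so reads TGACCTT; its first letter is 119 bases before the start of Slc25a34.
Slc25a34, chr4:141623835-141623984: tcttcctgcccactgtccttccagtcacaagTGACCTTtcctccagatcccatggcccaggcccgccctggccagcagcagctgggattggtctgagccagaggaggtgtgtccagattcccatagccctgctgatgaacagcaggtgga
Slc25a30, chr14:75787038-75787187: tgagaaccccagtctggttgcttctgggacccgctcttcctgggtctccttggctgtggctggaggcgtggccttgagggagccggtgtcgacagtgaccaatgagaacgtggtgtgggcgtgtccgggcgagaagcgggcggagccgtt
No capitals appear in the Slc25a30 sequence because neither ERR motif is in it. These are mouse promoters set beside rat measurements, and a motif outside this window was not looked for.

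Total counts ran from 12013379 to 18315341 per rat library and from 11375917 to 16599930 per mouse library. SLC25 members took 0.0996% to 0.139% of the counts in rat and 0.118% to 0.142% in mouse. In rat the mean share was 0.122% in scramble vehicle, 0.138% in scramble 915, 0.100% in knockdown vehicle and 0.119% in knockdown 915 libraries. The siRNA targets checked the labels. Esrra was at 169 to 229 CPM (counts scaled to the library's total) in the 6 scramble libraries and at 12.7 to 21.9 in the 6 knockdown libraries. Esrrg was at 130 to 302 CPM in scramble and at 16.1 to 25.1 in knockdown libraries. Esrrb, which the siRNA named in the labels did not target, was at 3.01 to 6.97 CPM in scramble and 0.665 to 1.78 in knockdown libraries. All 5 cardiomyocyte markers (Tnnt2, Myh6, Actc1, Myl2 and Ryr2) were present in both species. Of 7 erythroid markers the rat table held 3, summing to at most 5.70 CPM, with Hba-a1 at 0 in scramble vehicle. The 5 adipocyte markers summed to at most 1.66 CPM in rat, with Ucp1 at 0 in all 4 groups, and to at most 16.5 CPM in a mouse library, with Lep at 0 in 3 of the 4 groups.

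Per length of transcript, a few carriers stood far above the rest. In rat the highest mean over the 4 groups, in FPKM, was 103.5 for Slc25a39, the glutathione carrier, and 96.8 for Slc25a11, the oxoglutarate-malate carrier. These neighbours changed order between groups: in scramble vehicle Slc25a11 was at 109 ± 5.53 FPKM (SD, n = 3) and Slc25a39 at 95.0 ± 6.86. Slc25a34 followed at 42.3, Slc25a42 at 36.5, Slc25a30 at 33.0, Slc25a1 at 28.8, Slc25a28 at 26.8 and Slc25a33 at 22.03 FPKM. Slc25a30 ran from 9.17 FPKM in knockdown vehicle to 63.1 in scramble 915.

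In mouse left ventricle the highest level per length was that of Slc25a12, the aspartate-glutamate carrier aralar, with a mean TPM over groups of 104. That value rests on short transcripts. Counting only transcripts with an effective length of at least 300 bases, a limit chosen after seeing the data, it was 24.5. Slc25a11 stood at 76.3 TPM by either count, Slc25a39 at 29.1 and Slc25a13 at 18.2 to 18.3. Slc25a22, the glutamate carrier, was at 22.9 TPM over all transcripts and 3.95 over the long ones, and Slc25a23 at 13.5 and 5.16. Slc25a34 was at 12 TPM in both. The rat and mouse data also differed in which carriers were measurable: Slc25a22 had at most 4 counts in a rat library, and Slc25a21 at most 2 in a mouse library. Species, cultured cells against tissue, and the counting of reads differ together here, so their parts cannot be told apart.

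**Figure D1:**
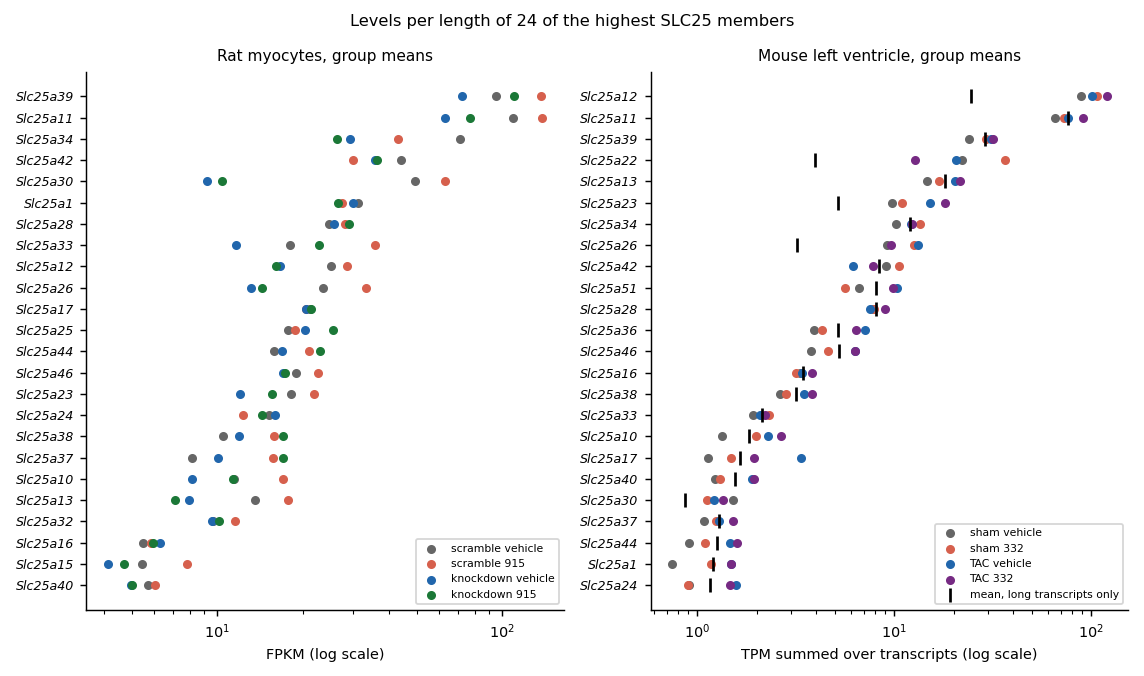
Group mean levels per length of 24 of the highest SLC25 members in rat myocytes (FPKM, log axis, 3 libraries a group) and mouse left ventricle (TPM summed over transcripts, log axis, 3 to 5 libraries a group). Black ticks give the mouse mean over long transcripts only; Slc25a39 and Slc25a11 lead in rat, and the tick for Slc25a12 lies at 24.5 against a mean of 104 over all transcripts.

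Of the rat members, 32 passed the filter on low counts and were tested among 15181 genes. In each test a member was called when its adjusted p fell under 0.05, differences are log2 fold changes ± standard error, and every p was adjusted over all genes tested. With ERR knockdown in vehicle cells, 12 members fell and 1 rose, or 40.6% of those tested, against 20.4% of all tested genes (12.7% lower and 7.75% higher). The median log2 difference was −0.044 over the members and 0.0083 over all genes. With 915 in scramble cells, 15 members rose and 4 fell, or 59.4% against 42.2% of all genes (21.5% higher and 20.6% lower), with a median of 0.25 against 0.0073. With 915 in knockdown cells, 10 rose and 0 fell, or 31.2% against 35.7% of all genes (18.1% higher and 17.6% lower). The share called in either direction was near the background, while all of the members' calls were rises. Knockdown under 915 lowered 12 and raised 3, or 46.9% against 33.9% (17.7% lower and 16.2% higher). Knockdown and 915 in scramble cells share the scramble vehicle libraries, and knockdown and 915 in knockdown cells share the knockdown vehicle libraries, so a value in one group enters both differences.

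**Figure D2:**
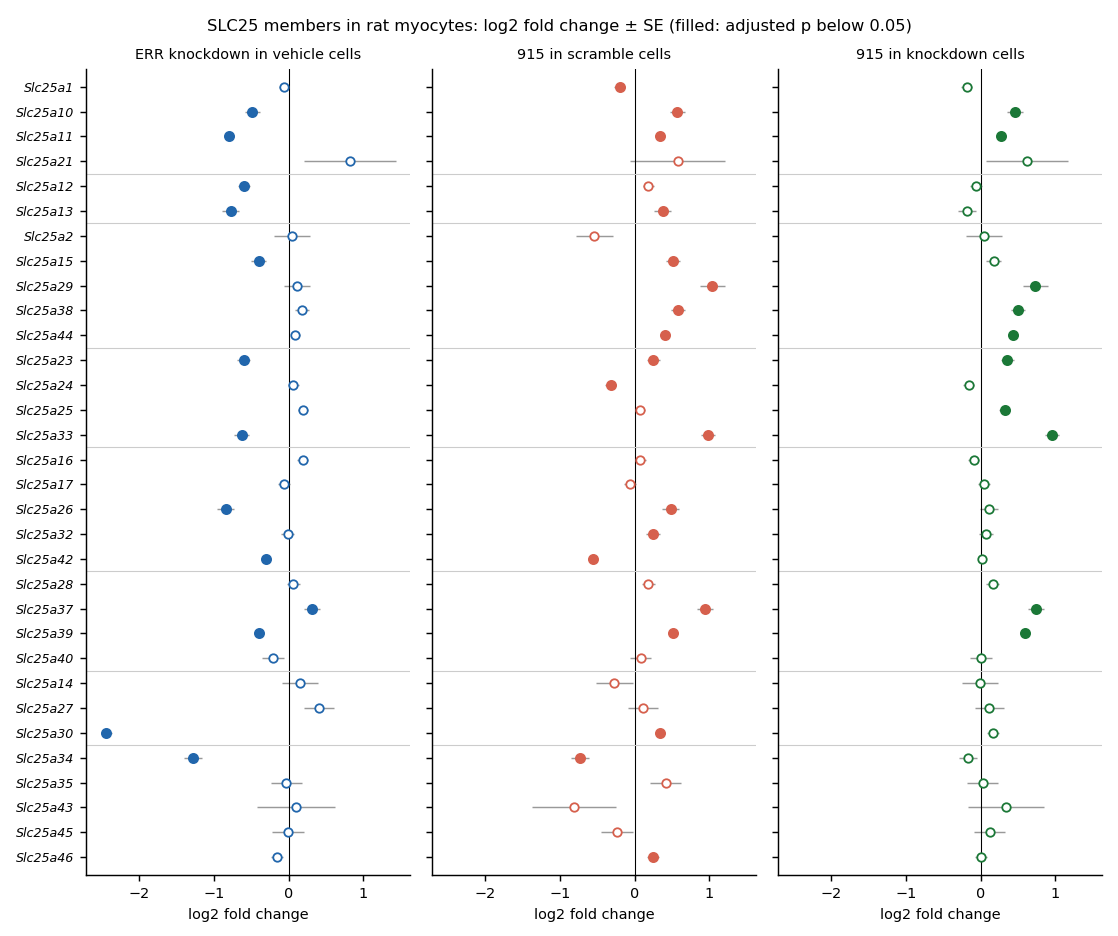
Log2 fold change ± SE of the 32 tested SLC25 members in rat myocytes for ERR knockdown, for 915 in scramble cells and for 915 in knockdown cells (3 libraries a group). Members are grouped by role between grey lines and filled points have an adjusted p under 0.05; Slc25a30 lies farthest left under knockdown at −2.43, and no filled point lies left of 0 for 915 in knockdown cells.

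The cell type markers moved too. Summed cardiomyocyte markers were at 10580 to 11600 CPM in scramble vehicle, 7543 to 7859 in knockdown vehicle, 14260 to 14980 in scramble 915 and 5952 to 7637 in knockdown 915, and 3 of the 5 fell with knockdown in vehicle cells. With 915 in scramble cells 1 of the 5 was called higher and 1 lower, and in knockdown cells 0 higher and 2 lower. Fibroblast markers (7 genes) summed to 10730 to 11490 CPM in scramble vehicle, 10610 to 11570 in knockdown vehicle, 5940 to 6452 in scramble 915 and 7193 to 8983 in knockdown 915. Not all 7 moved alike: 915 lowered 4 and raised 1 in scramble cells, and lowered 2 and raised 1 in knockdown cells. Smooth muscle and pericyte markers (5 genes) went from 4466 to 4702 CPM in scramble vehicle to 1638 to 2000 in scramble 915, and from 4532 to 5172 in knockdown vehicle to 2058 to 2442 in knockdown 915. Here 915 lowered 4 and raised 0 in scramble cells, and lowered 4 and raised 1 in knockdown cells. Leukocyte markers summed to 26.4 to 31.97 CPM in scramble vehicle, 37.3 to 38.4 in scramble 915, 50.2 to 52.3 in knockdown vehicle and 64.2 to 80.7 in knockdown 915, and 3 of the 4 tested rose with knockdown in vehicle cells. Endothelial markers were at 13.99 to 16.4 CPM in scramble vehicle, 17.6 to 18.8 in scramble 915, 17.8 to 18.2 in knockdown vehicle and 29.6 to 33.8 in knockdown 915, with 1 of 3 tested called higher with knockdown. The part of these shifts in the carrier results was not tested, and in bulk RNA fewer cells of a type and less RNA per cell cannot be told apart.

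The largest knockdown difference was in Slc25a30, the kidney mitochondrial carrier, a relative of the uncoupling proteins (rn6, chromosome 15, 57813356 to 57834173, minus strand). It stood at 93.3, 87.3 and 90.8 CPM in scramble vehicle and at 16.04, 17.96 and 16.2 in knockdown vehicle. Under 915 the CPM were 113, 121 and 109.6 in scramble and 17.8, 19.6 and 18.8 in knockdown libraries. All 6 knockdown libraries lay below all 6 scramble libraries, with a wide gap. Knockdown left 0.185 times the scramble level in vehicle (−2.43 ± 0.071, adjusted p = 3.11e-18) and 0.164 times under 915. The rise with 915 passed the test in scramble cells (0.34 ± 0.063) and not in knockdown cells (0.17 ± 0.079), but the difference of these effects itself did not pass (−0.17 ± 0.10, adjusted p = 0.408). The other uncoupling-protein relatives, Slc25a14 (UCP5) and Slc25a27 (UCP4), had low levels and were called in neither knockdown nor 915 comparisons.

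Slc25a34, a member without a substrate assigned here (chromosome 5, 160176124 to 160179978, minus strand), was lower with knockdown and also with 915. Scramble vehicle libraries held 103, 91.4 and 86.1 CPM and scramble 915 libraries 49.9, 69.6 and 50.1. In knockdown cells the values were 40.9, 39.1 and 36.1 with vehicle and 31.5, 35.3 and 36.5 with 915. The 4 groups did not overlap except for the 2 knockdown groups. The log2 difference was −1.28 ± 0.12 (adjusted p = 2.34e-06) for knockdown and −0.73 ± 0.12 (adjusted p = 0.000172) for 915 in scramble cells. In knockdown cells the 915 difference was −0.17 ± 0.12, and the difference of the 915 effects was 0.56 ± 0.17 (adjusted p = 0.0987 by edgeR). DESeq2 called this difference of effects (0.57, adjusted p = 0.0103).

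**Figure D3:**
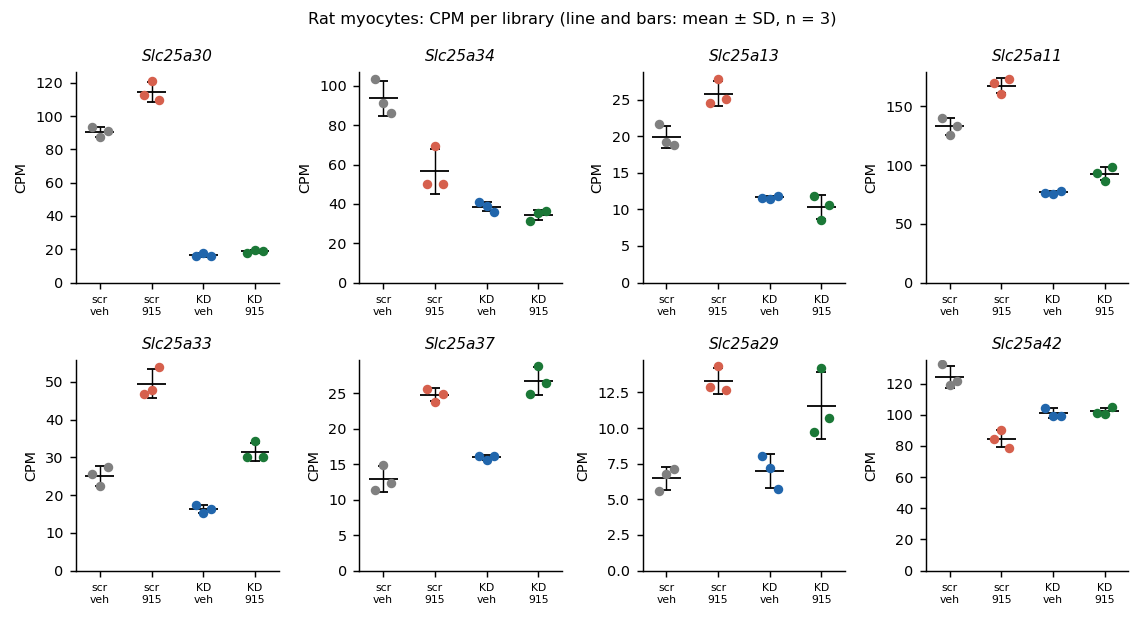
CPM per library of 8 SLC25 members in the 4 rat groups (points are libraries, line and bars are mean ± SD, n = 3). Slc25a30 and Slc25a11 are lower in every knockdown library than in every scramble library, and Slc25a42 falls with 915 in scramble cells only.

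Among the carriers of di- and tricarboxylates, 4 were tested: 2 fell with knockdown and, with 915 in scramble cells, 2 rose and 1 fell. Of all genes, 12.7% fell with knockdown, and 21.5% rose and 20.6% fell with 915 in scramble cells. No group of carriers by role was tested as a set. Slc25a11, which trades oxoglutarate for malate in the malate-aspartate shuttle (chromosome 10, 57265704 to 57268081), was at 140.4, 125 and 133 CPM in scramble vehicle, 169.6, 160.3 and 173 in scramble 915, 76.6, 75.4 and 78.4 in knockdown vehicle and 93.1, 86.9 and 98.4 in knockdown 915. Its 4 groups did not overlap. It fell with knockdown by −0.79 ± 0.058 (adjusted p = 9.39e-11) in log2 terms and rose with 915 by 0.34 ± 0.056 in scramble and 0.27 ± 0.058 in knockdown cells. Slc25a10, the dicarboxylate carrier, was at 24.1, 19.7 and 22.4 CPM in scramble vehicle, 33.2, 33.04 and 32.1 in scramble 915, 16.5, 15.02 and 15.8 in knockdown vehicle and 19.9, 20.4 and 24.8 in knockdown 915. It was highest in scramble 915 and lowest in knockdown vehicle, while scramble vehicle and knockdown 915 overlapped. Slc25a1, which carries citrate out of the matrix, was at 53.9, 56.03 and 52.4 CPM in scramble vehicle, 48.3, 48.1 and 45.1 in scramble 915, 51.1, 56.1 and 48.2 in knockdown vehicle and 41.3, 46.8 and 48.3 in knockdown 915. Its only call was a small fall with 915 in scramble cells, −0.20 ± 0.073, which was lost in 6 of the alternatives tried. Slc25a21, the oxodicarboxylate carrier, reached at most 1.02 CPM in a rat library and was not called.

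Both aspartate-glutamate carriers, which export aspartate for the malate-aspartate shuttle, fell with knockdown. Slc25a12 was at 47.6, 51.7 and 52.4 CPM in scramble vehicle, 53.3, 58.1 and 60.4 in scramble 915, 32.8, 32.7 and 34.7 in knockdown vehicle and 29.02, 32.6 and 34.4 in knockdown 915. The scramble libraries all lay above the knockdown libraries, and the difference was −0.60 ± 0.076 with vehicle and −0.84 ± 0.077 under 915. Slc25a13 (citrin, chromosome 4, 31608269 to 31730386) was at 21.6, 19.2 and 18.8 CPM in scramble vehicle, 24.6, 27.8 and 25.1 in scramble 915, 11.6, 11.5 and 11.8 in knockdown vehicle and 11.8, 8.51 and 10.6 in knockdown 915. Its knockdown difference was −0.78 ± 0.12 with vehicle and −1.33 ± 0.12 under 915. With 915 it rose in scramble cells (0.38 ± 0.11) and not in knockdown cells (−0.18 ± 0.12), and the difference of these effects was −0.55 ± 0.16 (adjusted p = 0.0621 by edgeR). DESeq2 called this difference of effects (−0.55, adjusted p = 0.0398). The rise in scramble cells was not called without scramble 915 replicate 2 (0.32). An opposite-strand gene, LOC680384, lies within Slc25a13, and the unstranded libraries cannot tell the reads of the pair apart.

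Of the 5 carriers of other amino acids, 4 rose with 915 in scramble cells and 3 in knockdown cells, where 21.5% and 18.1% of all genes rose. Slc25a29, a basic amino acid carrier (chromosome 6, 132735883 to 132747828), had the largest rise: 5.58, 6.74 and 7.10 CPM in scramble vehicle against 12.9, 14.3 and 12.6 in scramble 915. In knockdown cells it was at 8.02, 7.21 and 5.70 CPM with vehicle and 9.75, 14.2 and 10.7 with 915. Neither pair of groups overlapped, with differences of 1.04 ± 0.17 (adjusted p = 1.71e-05) and 0.73 ± 0.17 (adjusted p = 0.00117). Slc25a44, the branched-chain amino acid carrier, was at 62.2, 58.4 and 55.4 CPM in scramble vehicle, 77.99, 77.7 and 77.2 in scramble 915, 60.7, 61.9 and 65.1 in knockdown vehicle and 82.4, 83.02 and 88.1 in knockdown 915. The 915 libraries lay above the vehicle libraries in both arms (0.40 ± 0.061 and 0.43 ± 0.06), and knockdown gave 0.092 ± 0.061. Slc25a38, the glycine carrier used for heme synthesis, differed by 0.58 ± 0.097 and 0.50 ± 0.096 with 915. Slc25a15, the ornithine carrier, was called with knockdown (−0.40 ± 0.1) and with 915 in scramble cells (0.52 ± 0.097), but not with 915 in knockdown cells (0.18 ± 0.10). Slc25a2, the other ornithine carrier, reached at most 4.68 CPM and was not called.

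Carriers of nucleotides moved in several directions. Slc25a33, which carries pyrimidine nucleotides (chromosome 5, 166701465 to 166726794), was at 25.6, 22.3 and 27.6 CPM in scramble vehicle, 46.9, 47.9 and 53.9 in scramble 915, 17.3, 15.1 and 16.3 in knockdown vehicle and 30.1, 34.3 and 30.2 in knockdown 915. No 2 of these groups overlapped. It fell with knockdown (−0.63 ± 0.097) and rose with 915, to 1.97 times vehicle in scramble and 1.94 times in knockdown cells. The difference of those 915 effects was −0.023 ± 0.13. Among the ATP-Mg/phosphate carriers, Slc25a23 was lower with knockdown (−0.60 ± 0.086) and higher with 915 in scramble (0.25 ± 0.083) and knockdown cells (0.36 ± 0.087). Its call with 915 in scramble cells was lost without scramble 915 replicates 1 or 2 or scramble vehicle replicates 2 or 3. Slc25a25 was at 53.6, 60.6 and 54.3 CPM in scramble vehicle, 57.2, 58.3 and 61.6 in scramble 915, 66.7, 65.95 and 59.4 in knockdown vehicle and 77.2, 77.5 and 85.02 in knockdown 915. It was highest in every knockdown 915 library, with a 915 difference of 0.32 ± 0.068 in knockdown cells and 0.073 ± 0.069 in scramble cells. Slc25a24 fell with 915 in scramble cells (−0.32 ± 0.076); its rise with knockdown under 915 (0.22 ± 0.076) was lost in 3 of the alternatives tried.

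Slc25a42, the coenzyme A carrier (chromosome 16, 20962227 to 20985225), was the one member whose 915 response differed between the arms in the main edgeR test. It was at 133, 119 and 122 CPM in scramble vehicle and 84.5, 90.003 and 79.03 in scramble 915, so that 915 left 0.678 times the vehicle level (−0.56 ± 0.058, adjusted p = 2.52e-08). In knockdown cells it was at 105, 99.04 and 99.4 CPM with vehicle and 101, 101 and 105 with 915, groups that overlapped (0.018 ± 0.058). The difference of the effects was 0.58 ± 0.082 (adjusted p = 0.000109); 3.12% of the members and 3.73% of all genes were called in that test. Knockdown lowered it with vehicle (−0.30 ± 0.058) and raised it under 915 (0.27 ± 0.059). Among the other cofactor carriers, Slc25a26, which brings in S-adenosylmethionine, had its largest differences with knockdown: −0.84 ± 0.12 with vehicle and −1.21 ± 0.12 under 915. It rose with 915 in scramble (0.48 ± 0.11) and not in knockdown cells (0.11 ± 0.12). Slc25a32, the folate and FAD carrier, rose a little with 915 in scramble cells (0.25 ± 0.09), while Slc25a16 and Slc25a17 were not called in any rat comparison. The Slc25a32 call was lost without scramble 915 replicates 1, 2 or 3 or scramble vehicle replicates 2 or 3.

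Of the 4 carriers of iron and glutathione, 2 rose with 915 in each arm, against 21.5% and 18.1% of all genes. Slc25a39 (chromosome 10, 90351900 to 90356242) was at 145, 126 and 145 CPM in scramble vehicle, 195, 208 and 193 in scramble 915, 105, 105 and 106 in knockdown vehicle and 155, 154 and 166 in knockdown 915. Its 4 groups did not overlap: knockdown gave −0.40 ± 0.056, and 915 gave 0.52 ± 0.055 in scramble and 0.59 ± 0.056 in knockdown cells. Slc25a37 (mitoferrin 1, chromosome 15, 51128268 to 51168384) was at 11.4, 14.9 and 12.4 CPM in scramble vehicle, 25.6, 23.8 and 24.9 in scramble 915, 16.1, 15.6 and 16.2 in knockdown vehicle and 24.9, 28.8 and 26.5 in knockdown 915. All 915 libraries lay above all vehicle libraries, with differences of 0.94 ± 0.11 (adjusted p = 9.06e-08) and 0.74 ± 0.10 (adjusted p = 3.48e-06). Its rise with knockdown (0.31 ± 0.11, adjusted p = 0.0428) was the only one among the members and was lost in 7 of the alternatives tried. Slc25a28 (mitoferrin 2) was at 36.8, 41.1 and 34.5 CPM in scramble vehicle, 43.9, 44.03 and 39.9 in scramble 915, 36.4, 43.4 and 37.5 in knockdown vehicle and 41.4, 46.6 and 43.1 in knockdown 915, with overlapping ranges between knockdown vehicle and scramble vehicle and no call. Slc25a40, the homologue of Slc25a39, was not called either. Of the remaining members, Slc25a46, whose span overlaps Sap130 on the other strand, rose with 915 in scramble cells (0.25 ± 0.081) and fell with knockdown under 915 (−0.41 ± 0.082). The Slc25a46 rise was not called without scramble 915 replicate 3 or scramble vehicle replicate 1. Slc25a35, Slc25a43 and Slc25a45 were not called.

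In the authors' deposited table, 12 members were called for knockdown, 18 for 915 in scramble cells and 10 for 915 in knockdown cells, none with the opposite sign. All of them were also called here. Slc25a37 for knockdown and Slc25a32 for 915 in scramble cells were called here only.

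The partners of the carriers were taken from lists of textbook genes. None was tested as a set; over all genes 12.7% fell with knockdown, and 21.5% rose and 20.6% fell with 915 in scramble cells. Of 7 enzymes of the malate-aspartate and glycerol phosphate shuttles, 5 fell with knockdown and 4 rose with 915 in scramble cells; Mdh1, cytosolic malate dehydrogenase, was at −1.07 ± 0.054 with knockdown, and Got1, cytosolic aspartate aminotransferase, at −1.18 ± 0.066 with knockdown and 0.37 ± 0.063 with 915. Of 11 tested genes for importing carriers into the inner membrane, 1 fell with knockdown (Timm10, −0.88 ± 0.099) and 7 rose with 915 in scramble cells, among them Tomm40 (0.57 ± 0.059) and Timm13 (0.66 ± 0.078). Of 12 iron-sulfur and heme genes, 5 fell with knockdown and 7 rose with 915 in scramble cells; Alas1, the first enzyme of heme synthesis, was at −0.55 ± 0.052 and 0.29 ± 0.051. NAD synthesis had 3 of 6 genes lower with knockdown and 4 higher with 915 in scramble cells; Nampt, which starts NAD salvage, was at −0.50 ± 0.051 and 0.72 ± 0.05. Coenzyme A synthesis had 3 of 6 lower with knockdown, among them Dcakd (−0.68 ± 0.066) and Pank1 (−0.96 ± 0.13), and 3 higher with 915 in scramble cells.

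Smaller sets gave mixed counts. Of 4 partners of citrate export, 3 fell with knockdown (among them Cs, citrate synthase, −0.78 ± 0.051), while Acly, which splits exported citrate, fell with 915 in scramble cells (−0.41 ± 0.053). Of 4 glutathione genes, 1 fell with knockdown and 2 rose with 915, led by Gsr, glutathione reductase (0.55 ± 0.064). Of 7 tested genes of branched-chain, proline and glutamate oxidation, 3 fell with knockdown, and with 915 in scramble cells 3 rose and 3 fell, with Bckdha at 0.63 ± 0.065. Carriers of the same family outside the symbol rule moved as well. The phosphate carrier Slc25a3 (−0.86) and the ADP/ATP carrier Slc25a5 (−0.99) were among the 5 of 8 tested that fell with knockdown. Ucp2 and Ucp3, uncoupling proteins, fell with 915 in scramble cells (−1.33 ± 0.061 and −3.16 ± 0.23) and less in knockdown cells, with differences of the effects of 0.82 ± 0.085 and 1.99 ± 0.32.

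In mouse, 35 members were tested among 14047 genes, with a split of the libraries into 2 sets as a term. The split was read from lane and index in the names of the deposited files; the sets are called runs here, but the labels do not say what they are. The first run held replicates 1 to 3 of each group and the second replicates 4 and 5, so sham vehicle was in the first run only. TAC in vehicle hearts lowered 5 members and raised 1, or 17.1% of those tested against 26.4% of all genes (12.8% lower and 13.5% higher). TAC in 332 hearts lowered 5 and raised 3, or 22.9% against 23.8% of all genes (12.1% lower and 11.8% higher). Both shares were below that of all genes, and the median log2 differences were −0.12 and −0.050, against −0.0052 and 0.00070 over all genes. Without sham vehicle replicate 3 the first count was 3, as it was without the run term; the second was 5 without the run term, without sham 332 replicates 2, 4 or 5, or without TAC 332 replicate 4. Of the 18 core clock genes, 6 rose and 8 fell with surgery in vehicle hearts. A clock score, their first principal component, was 1.59 to 2.94 in sham vehicle, −5.13 to −1.35 in TAC vehicle, −2.01 to 2.24 in sham 332 and −0.231 to 1.95 in TAC 332. With this score as a term, 0 members were called for TAC in vehicle hearts by edgeR, and 8 for TAC in 332 hearts. In vehicle hearts the score and surgery did not overlap and so cannot be told apart.

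Markers of some cell types also differed with TAC. Summed fibroblast markers were at 460.7 to 550.8 CPM in sham vehicle, 917.8 to 1546 in TAC vehicle, 471.3 to 526.7 in sham 332 and 674.8 to 1935 in TAC 332, with 6 and 5 of 7 called higher. Cardiomyocyte markers were at 44980 to 47120 CPM in sham vehicle, 35140 to 46340 in TAC vehicle, 46880 to 61770 in sham 332 and 35810 to 53340 in TAC 332, with 3 and 4 of 5 called lower. Leukocyte markers were at 96.9 to 131 CPM in sham vehicle and 131 to 185 in TAC vehicle, with 1 of 5 called higher. Erythroid markers summed to 590.4 to 989.5 CPM in sham vehicle, 532.4 to 821.6 in TAC vehicle, 823.3 to 2100 in sham 332 and 1072 to 2689 in TAC 332. Sham and TAC ranges overlapped, and 0 of the 6 tested were called with TAC under either treatment. Of 5 endothelial markers, 2 rose with TAC in vehicle hearts and 1 in 332 hearts. Of 5 smooth muscle and pericyte markers, 0 were called with TAC. The part of the marker differences in the carrier results was not tested.

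The largest TAC differences were in the glutamate carrier Slc25a22 and the coenzyme A carrier Slc25a42. Slc25a22 was at 24.04, 34.6 and 36.4 CPM in sham vehicle and 23.5, 12.01, 16.9, 15.4 and 10.9 in TAC vehicle. With 332 it was at 33.8, 37.4, 31.2, 33.2 and 35.9 CPM in sham and 20.2, 23.1, 18.7, 12.6 and 22.3 in TAC hearts. With vehicle, TAC libraries lay below sham libraries, the highest TAC library at 23.5 CPM and the lowest sham library at 24.0, and with 332 the groups were well apart. The differences were −0.94 ± 0.22 (adjusted p = 0.00678) with vehicle and −0.83 ± 0.19 (adjusted p = 0.00537) with 332. Within runs the second was −0.71 and −0.98, neither called alone. Fitted on the sham and TAC vehicle libraries only, the first was no longer called.

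Slc25a42 was at 57.2, 80.3 and 88.7 CPM in sham vehicle and 51.8, 30.8, 42.3, 42.3 and 26.4 in TAC vehicle. Under 332 it was at 78.3, 68.5, 76.5, 76.7 and 77.2 CPM in sham and 48.4, 59.2, 39.7, 27.8 and 47.6 in TAC hearts. TAC libraries lay below sham libraries with either treatment, and the sham vehicle libraries spread widely. TAC left 0.540 times the sham level with vehicle (−0.89 ± 0.23, adjusted p = 0.0114) and 0.586 times with 332 (−0.77 ± 0.19, adjusted p = 0.0107). Within runs the latter was −0.59 and −1.02, neither called alone. The vehicle call was lost without sham vehicle replicate 3, at −0.76, and with the vehicle groups fitted alone.

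**Figure D4:**
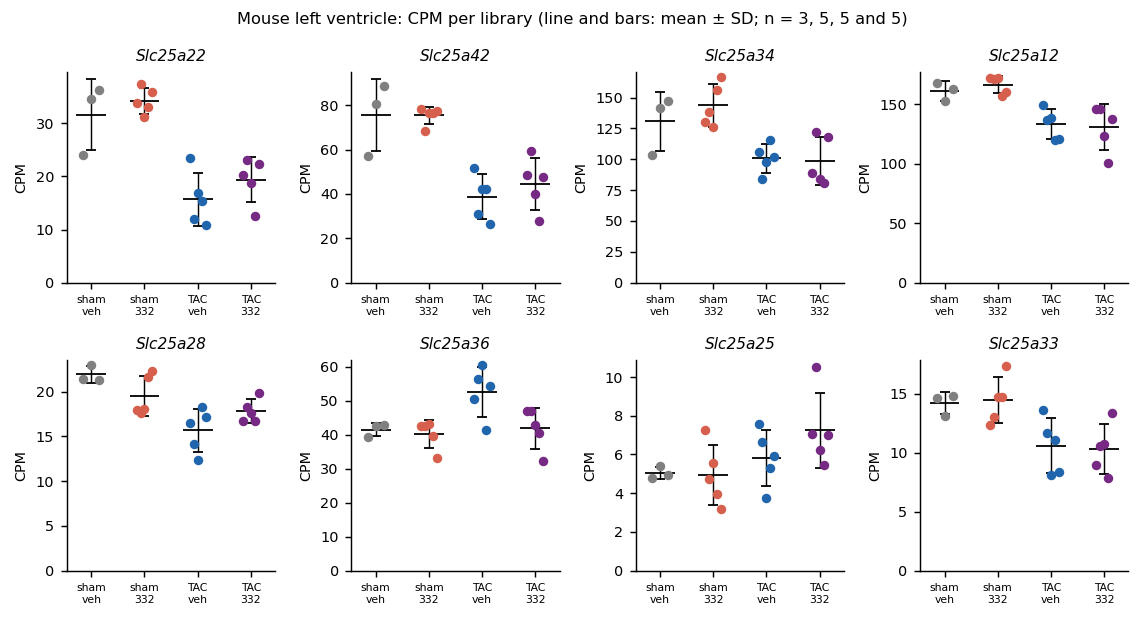
CPM per library of 8 SLC25 members in the 4 mouse groups (points are libraries, line and bars are mean ± SD, n = 3, 5, 5 and 5). Every TAC library is below every sham library of the same treatment for Slc25a22 and Slc25a42, while Slc25a36 is highest in 4 of the 5 TAC vehicle libraries.

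Slc25a34 was at 103, 142 and 147 CPM in sham vehicle and 106, 83.7, 97.4, 116 and 102 in TAC vehicle, groups that overlapped. In the 332 groups it was at 130.3, 139, 126, 156 and 166 CPM in sham and 88.9, 122, 83.7, 80.7 and 118 in TAC hearts, groups that did not. TAC lowered it by the test with vehicle (−0.44 ± 0.15, adjusted p = 0.0391) and with 332 (−0.53 ± 0.13, adjusted p = 0.00555), the first of which was lost in 10 of the alternatives tried. Without sham vehicle replicate 3 the vehicle difference stood at −0.35. The 332 difference was −0.41 and −0.70 within runs, neither called alone.

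Of the malate-aspartate shuttle carriers, Slc25a11 was at 344, 348 and 348 CPM in sham vehicle and 316, 306, 271, 301 and 279 in TAC vehicle. Mice given 332 had 363, 339, 364, 366 and 347 CPM in sham and 324, 331, 326, 262 and 349 in TAC hearts. The vehicle groups did not overlap and the 332 groups did, with differences of −0.22 ± 0.081 (adjusted p = 0.0492) and −0.16 ± 0.067 and a clock-adjusted value of 0.042 with vehicle. The vehicle call was lost in 12 of the alternatives tried, among them each sham vehicle library left out (adjusted p = 0.0847 to 0.101 by edgeR), TAC vehicle replicates 2, 3 or 5 left out, and no run term (adjusted p = 0.0656). Slc25a12 was at 168, 152 and 163 CPM in sham vehicle and 149, 137, 138, 120.2 and 120.4 in TAC vehicle. With 332 it was at 171, 171, 172, 157 and 159.99 CPM in sham and 145, 146, 123, 100.1 and 138 in TAC hearts. Here only the 332 difference was called (−0.35 ± 0.071, adjusted p = 0.0012; vehicle −0.20 ± 0.085), although no TAC library reached the lowest sham library of its treatment. Within runs it was −0.30, called alone, and −0.41. For Slc25a12 only 30.01% of the mouse reads fell on its protein-coding transcripts. Slc25a13, at 108 to 136 CPM in all libraries, was called in no mouse comparison. Mean TPM, not tested, went the other way for Slc25a11 and Slc25a12, in ranges that overlapped. A rise in mean TPM with TAC was not particular to these 2 carriers. Slc25a13 went from 14.62 to 20.23 TPM under vehicle and from 16.85 to 21.63 under 332. Slc25a51, whose CPM differed little with TAC, went from 6.634 to 10.33 and from 5.592 to 9.847 TPM. Slc25a11 went from 65.4 to 76.6 TPM with TAC under vehicle and from 72.4 to 90.7 under 332. Slc25a12 went from 88.8 to 100.7 and from 106.8 to 119.8 TPM. For Slc25a22 and Slc25a42 mean TPM was lower with TAC under both treatments. For Slc25a28, Slc25a33 and Slc25a34 it was higher under 1 treatment and lower under the other.

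Of the 5 tested carriers of nucleotides, 1 rose with TAC in vehicle hearts, and 3 rose and 1 fell with TAC in 332 hearts, where 13.5% and 11.8% of all genes rose. Slc25a36, which carries pyrimidine nucleotides, was at 39.2, 42.5 and 42.7 CPM in sham vehicle and 50.4, 56.2, 60.5, 41.4 and 54.1 in TAC vehicle. Under 332 it was at 42.5, 42.6, 43.1, 39.4 and 33.001 CPM in sham and 46.8, 46.9, 42.7, 40.5 and 32.2 in TAC hearts. TAC vehicle libraries were the highest but for replicate 4, which fell within the sham range. TAC raised it with vehicle (0.44 ± 0.095, adjusted p = 0.00182) and gave 0.055 ± 0.079 with 332. The 332 difference in TAC hearts was −0.33 ± 0.078 (adjusted p = 0.0576). The difference of the 332 effects was −0.39 ± 0.12 (adjusted p = 0.238), so the change between treatments did not pass the test. Without the run term the vehicle call was lost (0.34, adjusted p = 0.067). Of the ATP-Mg/phosphate carriers, 3 rose with TAC in 332 hearts: Slc25a23 by 0.27 ± 0.085, Slc25a24 by 0.33 ± 0.11 and Slc25a25 by 0.58 ± 0.19. Slc25a25 was at 7.26, 4.74, 5.56, 3.97 and 3.20 CPM in sham 332 and 7.04, 10.5, 6.25, 5.44 and 6.98 in TAC 332, groups that overlapped. With vehicle it was at 4.78, 5.39 and 4.96 CPM in sham and 7.57, 6.65, 3.74, 5.29 and 5.93 in TAC hearts. All 3 calls were lost without the run term and in each run alone. They were also lost with single libraries left out: Slc25a23 without sham 332 replicates 2, 3 or 4 or TAC 332 replicates 3 or 4 (lowest value 0.21), Slc25a24 without sham 332 replicates 2 to 5 or TAC 332 replicates 1 or 4 (0.25), and Slc25a25 without sham 332 replicates 2, 4 or 5 or TAC 332 replicates 2 or 5 (0.44). DESeq2 did not call Slc25a24 (adjusted p = 0.0598). Slc25a33 was at 14.6, 13.1 and 14.8 CPM in sham vehicle and 13.6, 11.6, 8.13, 11.1 and 8.39 in TAC vehicle. In the 332 groups it was at 12.4, 12.98, 14.7, 14.7 and 17.4 CPM in sham and 8.92, 10.6, 10.7, 7.84 and 13.4 in TAC hearts. The TAC difference was called with 332 only (−0.48 ± 0.15, adjusted p = 0.0211; vehicle −0.44 ± 0.17, adjusted p = 0.0664), and the test of the difference gave −0.042 ± 0.23. The 332 call was lost without sham 332 replicate 5 or TAC 332 replicates 1 or 4 and in each run alone. The vehicle difference was called without TAC vehicle replicate 1 (−0.59, adjusted p = 0.0118) and with no low-count filter (adjusted p = 0.00781).

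Mitoferrin 2, Slc25a28, was at 21.5, 23.04 and 21.3 CPM in sham vehicle and 16.5, 14.1, 12.4, 18.3 and 17.2 in TAC vehicle. Mice given 332 had 17.9, 17.6, 18.1, 21.6 and 22.3 CPM in sham and 16.7, 18.4, 17.6, 16.7 and 19.9 in TAC hearts. Every TAC vehicle library lay below the sham vehicle libraries (−0.57 ± 0.097, adjusted p = 0.000228). With 332 the groups overlapped (−0.12 ± 0.081), and the difference between the treatments was 0.45 ± 0.13 (adjusted p = 0.172). Only 36.6% of the mouse reads of Slc25a28 fell on protein-coding transcripts; counted on those alone, the vehicle difference was −0.37 and not called. The other iron and glutathione carriers were not called. Slc25a37 was at 22.4, 18.7 and 20.1 CPM in sham vehicle, 20.4, 18.4, 17.7, 16.9 and 13.4 in TAC vehicle, 21.3, 17.96, 22.5, 19.6 and 17.9 in sham 332 and 19.2, 20.01, 17.1, 16.9 and 18.7 in TAC 332. Only 37.98% of the mouse reads of Slc25a37 fell on protein-coding transcripts. Its TAC difference was −0.17 with vehicle and −0.11 with 332. Counted on protein-coding transcripts alone, it was −0.61 and −0.44, also not called. Slc25a39 was at 61.5, 59.99 and 61.2 CPM in sham vehicle, 67.1, 57.5, 65.2, 64.8 and 62.2 in TAC vehicle, 72.7, 65.996, 64.8, 74.3 and 74.3 in sham 332 and 63.9, 67.2, 68.7, 68.01 and 71.6 in TAC 332. Sham and TAC groups of the same treatment overlapped for both, while for Slc25a39 the sham vehicle libraries lay below every library given 332.

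The other members of the fixed set were not called in mouse either. Slc25a1 was at 3.60, 3.13 and 3.78 CPM in sham vehicle, 3.47, 4.52, 3.96, 5.22 and 5.87 in TAC vehicle, 3.41, 6.53, 3.62, 5.98 and 6.11 in sham 332 and 3.86, 5.32, 4.71, 5.51 and 5.73 in TAC 332. The sham vehicle libraries overlapped TAC vehicle and sham 332 and lay just below TAC 332. Slc25a10 was at 7.52, 8.09 and 7.77 CPM in sham vehicle, 6.62, 7.10, 5.86, 8.55 and 9.21 in TAC vehicle, 9.14, 7.23, 9.27, 11.3 and 10.2 in sham 332 and 9.61, 8.32, 9.64, 10.7 and 10.1 in TAC 332. For Slc25a10 332 in TAC hearts gave 0.38 ± 0.096 (adjusted p = 0.0858). Slc25a44 was between 13.5 and 18.2 CPM and Slc25a51, the NAD carrier, between 47.7 and 59.7 CPM over the 18 libraries. Slc25a30, the member with the largest rat knockdown difference, was at 4.87 to 8.40 CPM in mouse, with TAC differences of 0.059 ± 0.13 and 0.034 ± 0.11.

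**Figure D5:**
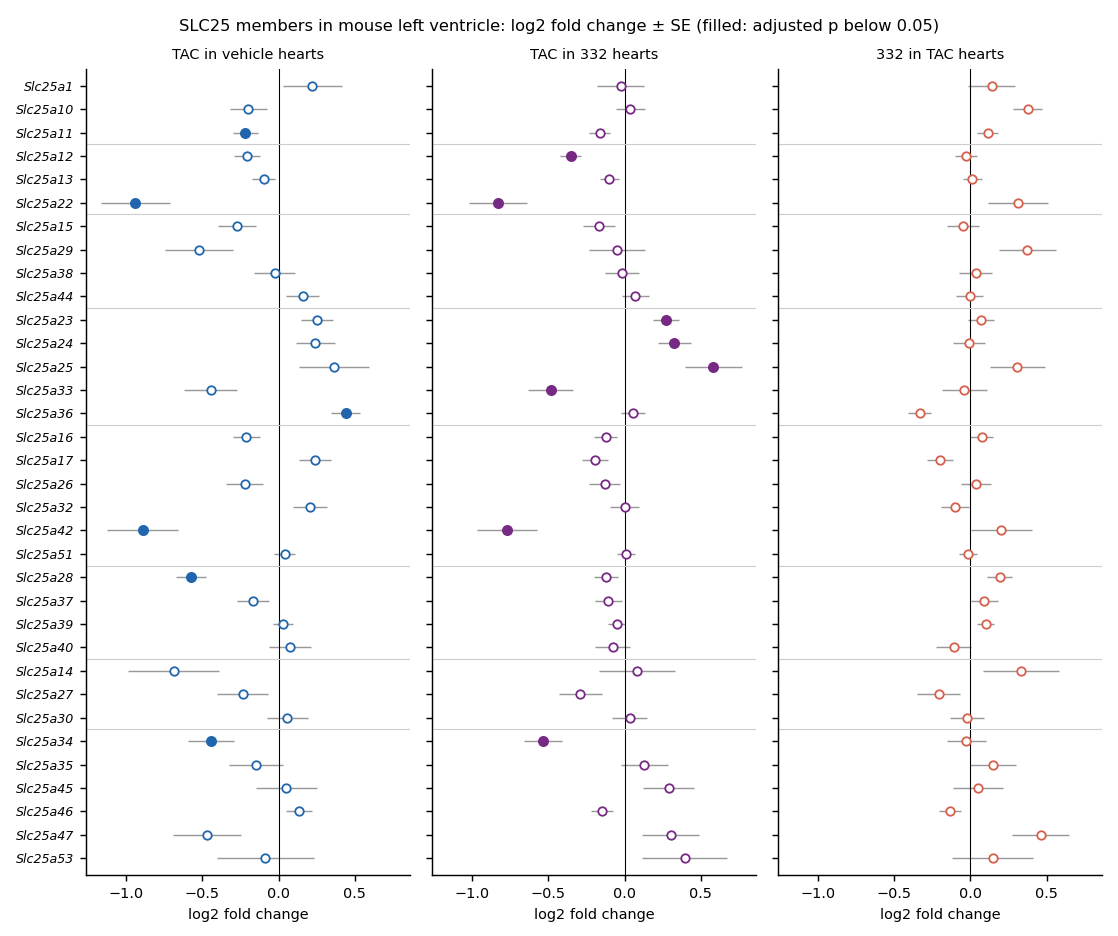
Log2 fold change ± SE of 34 of the 35 tested SLC25 members in mouse left ventricle for TAC with vehicle, TAC with 332 and 332 in TAC hearts (3 to 5 libraries a group). Filled points have an adjusted p under 0.05 and members are grouped by role between grey lines; Slc25a22 and Slc25a42 lie farthest left in both TAC panels, and no point is filled for 332.

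With 332 no member was called. In TAC hearts edgeR called 0 of 35 members against 0.427% of all genes, with 6 members at an unadjusted p under 0.05, and DESeq2 called 1, Slc25a36. In sham hearts edgeR and DESeq2 both called 0, against 0.00712% of all genes by edgeR, with 3 members at an unadjusted p under 0.05. The difference of the 332 effects between TAC and sham gave 0 calls with both tools, against 0.0641% of all genes by edgeR, with 5 at an unadjusted p under 0.05. The log2 differences of members with 332 ran from −0.33 to 0.46 in TAC and from −0.44 to 0.39 in sham hearts. For the members that fell with TAC, 332 in TAC hearts gave 0.31 ± 0.19 for Slc25a22, 0.20 ± 0.20 for Slc25a42, −0.027 ± 0.13 for Slc25a34, −0.029 ± 0.071 for Slc25a12, 0.11 ± 0.067 for Slc25a11, 0.19 ± 0.081 for Slc25a28 and −0.039 ± 0.15 for Slc25a33. With no low-count filter edgeR called Slc25a22 higher with 332 in TAC hearts (0.31, adjusted p = 0.0413).

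The same lists were counted in mouse, again with no set test. Over all genes 12.8% fell and 13.5% rose with TAC in vehicle hearts, and 12.1% fell and 11.8% rose with TAC in 332 hearts. Of 7 shuttle enzymes, 2 fell with TAC in vehicle hearts (Mdh1 −0.34 ± 0.082, Mdh2 −0.32 ± 0.08) and 5 with TAC in 332 hearts. Of 5 tested NAD synthesis genes, 3 fell with each treatment, among them Nampt (−0.97 ± 0.17 with vehicle) and Nmnat3 (−0.52 ± 0.11 and −0.54 ± 0.088). Of 7 tested genes of branched-chain, proline and glutamate oxidation, 5 fell with each treatment, among them Bckdhb (−0.80 ± 0.13 and −0.48 ± 0.11) and, with vehicle, Prodh (−0.96 ± 0.19). Of 8 coenzyme A synthesis genes, 2 and 1 fell, Pank1 at −0.60 ± 0.13 and −0.44 ± 0.11. Of 4 citrate export partners, 1 and 2 fell, Cs at −0.31 ± 0.087 and −0.37 ± 0.073. Of 13 genes for carrier import, 2 and 1 rose, Timm10 at 0.32 ± 0.093 and 0.22 ± 0.076. Of 13 iron-sulfur and heme genes, 2 fell with each treatment and 1 rose with vehicle; Iscu was at −0.29 ± 0.075 with vehicle. The carrier import and iron-sulfur counts were near the shares of all genes. Of 4 glutathione genes Gclm was called lower with TAC in vehicle hearts (−0.31 ± 0.11) and higher with TAC in 332 hearts (0.25 ± 0.09). In the difference of the 332 effects, and with 332 in TAC or in sham hearts, 0 of the 4 were called. In the same family outside the rule, Slc25a3 was at −0.38 ± 0.086 and −0.36 ± 0.072 with TAC, Slc25a4, the muscle ADP/ATP carrier, at −0.39 ± 0.091 with vehicle, and Slc25a20, the carnitine carrier, at −0.45 ± 0.083 with 332.

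Members that did not pass the filter on low counts were named but not tested. In rat these were Slc25a18, Slc25a22, Slc25a31, Slc25a41, Slc25a47, Slc25a48 and Slc25a54, with at most 12 counts in a library. In mouse they were Slc25a18, Slc25a21, Slc25a31, Slc25a41, Slc25a43, Slc25a48 and Slc25a54, also with at most 12 counts. Slc25a54 had 0 counts over the 18 mouse libraries, which allows a level of up to 0.0121 CPM. These limits cover counting error only.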

How the data were processed

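RNA-seq was measured in 12 rat and 18 mouse libraries. Rat gene counts, as whole reads per gene, and FPKM, scaled to gene length and depth, were deposited by the authors in a table on rn6, with their log2 fold changes and p-values per comparison, per the file headers. Per the submitters' processing notes the rat tools were featureCounts 1.5.0-p3, DESeq2 1.20.0, HISAT2 2.0.5 and StringTie 1.3.3b. Mouse estimated counts and TPM per transcript were deposited by the authors from Salmon after fastp, per the submitters' processing notes; the build is not given in the sources used here. Libraries were unstranded in rat, per the labels.

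Mouse estimated counts were summed per gene over all its transcripts and rounded. A mouse gene counted as protein-coding when any of its transcripts did. Counts were filtered with filterByExpr (minimum count 10), scaled by TMM and tested with edgeR 4.0.16 (R 4.3.3, quasi-likelihood F-test, Benjamini-Hochberg over all genes). Each species was fitted once over its 4 groups, in mouse with the run term. Standard errors are the log2 fold change divided by the square root of F. CPM are on TMM-scaled library sizes. The test recovered known changes in simulated counts, which had the same spread for every gene and no difference between runs. That setting is simpler than these libraries, so it does not measure how often the test errs on them. FPKM and TPM were described without a test. Mouse build-dependent coordinates are given only for RefSeq promoters. The 32 members with a promoter had 42 promoters between them. For 32 of these 42 promoters, the 25 bases from the start lay within the first 600 bases of a GENCODE transcript of the gene.

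Genes were named by a rule: a fixed set of 16 members, up to 6 called rises and 6 falls per comparison, members called in a difference of effects, the 8 highest per length, members below the filter, and up to 2 per related list; a few genes it names are not reported here. Members and lists were chosen with earlier results of these data known. Alternatives were RLE scaling, 2 other filters, DESeq2 1.42.0, a replicate block, only the groups compared, mitochondrially encoded genes removed, each library left out, and in mouse no run term, each run alone, a clock term and, added after seeing the data, protein-coding transcripts only. Same-numbered replicates did not deviate together (correlations −0.053 to 0.040 in rat, −0.316 to 0.020 in mouse), so the numbers were not used as pairs. No 2 libraries held identical values.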

Additional observations from a re-analysis of the deposited data

Results flagged for a closer look

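In the sham 332 group, Slc25a42 stood at 68.5 CPM in replicate 2, while the other 4 libraries lay between 76.5 and 78.3 CPM. The gap was 0.815 of the group's whole range, above the 0.71 that marks a library far from the rest. It was the only one of 57 groups of 5 libraries over 19 named members to be marked, where chance marks about 1 in 20.

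The 915 effect on Slc25a42 differed between knockdown and scramble cells by 0.58 on the log2 scale in the test of the difference itself (adjusted p = 0.000109, edgeR). The coenzyme A carrier was lower with 915 in all 3 scramble libraries than in any scramble vehicle library, and the knockdown groups overlapped.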

How the results depend on the processing

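The counts of members called for knockdown, for 915 in either arm and for knockdown under 915 stayed within 1.5 times their value in every alternative run. Leaving out each library in turn gave 12 to 14, 15 to 17, 10 to 12 and 14 to 17 calls. The difference of the 915 effects, 1 call, became 2 with no low-count filter, 3 with DESeq2 and 1 to 2 with a library left out; Slc25a13 was added without DKD_915 replicate 1 and Slc25a34 without scramble_915 replicate 2. TAC in vehicle hearts, 6 calls, became 3 with only the groups compared, 3 with no run term, 0 with the clock term and 3 to 8 with a library left out, 3 without sham_vehicle replicate 3; Slc25a11 turned to 0.042 with the clock term (adjusted p = 0.954). TAC in 332 hearts, 8 calls, became 5 with no run term, 1 in the first run and 0 in the second, which has fewer libraries, and 5 to 8 with a library left out. The 5 calls came without sham_332 replicates 2, 4 or 5 or TAC_332 replicate 4. For 332 in TAC hearts, 0 calls, there were 2 with no low-count filter, Slc25a22 and Slc25a36, and 1 with DESeq2. With a library left out there were 0 to 1, the 1 being Slc25a36 without TAC_332 or TAC_vehicle replicate 4. The other causes were not tested. The replicate block gave 13, 21, 10 and 15 calls for the 4 rat comparisons, 1 for their difference, and 4, 8, 0, 0 and 0 for TAC with vehicle, TAC with 332, 332 in TAC, 332 in sham and their difference. No scaling moved the median of all genes by more than 0.1 on the log2 scale.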
